A study of Rattus norvegicus with 2 samples.

Results

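Clic5-positive Prg4-high lining cells were cells rich in the joint lubricant Prg4 that also held RNA of Clic5, Rab3b or Gstt3, and 283 of 13758 kept cells met the definition. A cell entered when Prg4 reached 5000 CPM (UMIs of the gene over all UMIs of the cell, times 1e6; a UMI, or unique molecular identifier, marks 1 captured RNA molecule) and Clic5, Rab3b and Gstt3 together gave at least 2 UMIs. It also had to hold under 1000 CPM of the cartilage collagen Col2a1, under 10000 CPM of the macrophage lysozyme Lyz2, and under 5 UMIs of Aqp3, Fam180a and Fam25a together. The collagen-induced arthritis (CIA) library gave 143 such cells and the control library 140. They were compared with Clic5-low cells, which passed the same limits with fewer than 2 UMIs of Clic5, Rab3b and Gstt3, and numbered 1780 in the CIA library and 638 in the control library. The values that chose the cells are described here and support nothing.

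Both libraries were made from cartilage of Lewis rats, a strain prone to experimental arthritis. The CIA rats had been given type II collagen with complete Freund's adjuvant and were collected on day 14, and the control rats had no treatment. The series text calls the controls sham, and the sources used here do not state how many rats made up a library, their age or the joint sampled. As each group was a single library, nothing could be tested across replicates. Every comparison is therefore of these libraries, not of the conditions, and each 95% interval reflects counting error alone.

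The lining of a joint is a thin layer of fibroblasts and macrophages facing the joint fluid, and its fibroblasts secrete Prg4 (lubricin) and hyaluronan, which lubricate the cartilage surface. Cells of the superficial zone of cartilage make Prg4 too. Clic5 belongs to the chloride intracellular channel family and is found with the actin cytoskeleton, Rab3b is a small GTPase of regulated vesicle release, and Gstt3 is a theta-class glutathione S-transferase. In arthritis, lining fibroblasts are known as a source of metalloproteases and cytokines.

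The 250 bases before the start sites of Prg4, Clic5, Rab3b and Gstt3 are printed because RNA of these genes defines the cells. They are RefSeq sequences of build GRCr8, which is not the build of the count files, written 5′ to 3′ in the direction of the gene, with motif matches on either strand in capitals. The start site in the table used is 1 per gene and need not be the one used in these cells. For Prg4, Rab3b and Gstt3 it differs from the outer end of the gene's RefSeq span, so the printed bases may lie within the gene. Their positions are chr13:65054226-65054475 (minus strand) for Prg4, chr9:24310965-24311214 (minus strand) for Clic5, chr5:128858841-128859090 (plus strand) for Rab3b and chr20:12874368-12874617 (plus strand) for Gstt3.
Prg4: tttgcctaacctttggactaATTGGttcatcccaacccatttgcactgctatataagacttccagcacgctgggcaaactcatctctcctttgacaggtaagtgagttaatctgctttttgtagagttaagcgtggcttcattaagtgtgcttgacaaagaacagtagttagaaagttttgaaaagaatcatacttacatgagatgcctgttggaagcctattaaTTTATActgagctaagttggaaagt
Clic5: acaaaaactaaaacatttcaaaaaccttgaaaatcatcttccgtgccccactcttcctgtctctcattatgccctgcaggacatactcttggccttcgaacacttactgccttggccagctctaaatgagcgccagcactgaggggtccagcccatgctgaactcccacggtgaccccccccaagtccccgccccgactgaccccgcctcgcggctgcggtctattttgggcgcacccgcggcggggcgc
Rab3b: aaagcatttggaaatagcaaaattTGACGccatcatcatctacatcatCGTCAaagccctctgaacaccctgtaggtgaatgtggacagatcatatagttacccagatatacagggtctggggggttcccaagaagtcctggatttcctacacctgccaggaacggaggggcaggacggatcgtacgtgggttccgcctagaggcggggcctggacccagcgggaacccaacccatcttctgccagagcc
Gstt3: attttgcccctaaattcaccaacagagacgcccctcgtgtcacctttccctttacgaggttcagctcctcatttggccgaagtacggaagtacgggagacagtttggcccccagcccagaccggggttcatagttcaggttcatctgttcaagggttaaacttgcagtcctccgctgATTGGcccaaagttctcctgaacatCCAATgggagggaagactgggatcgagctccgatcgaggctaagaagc

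These windows were searched on both strands for 7 motifs: the TATA box TATAAA, the CCAAT box, the full cyclic AMP response element TGACGTCA and its shorter form TGACG, which lies inside the full one. The search also covered the AP-1 site TGANTCA, the forkhead site GTAAACA and the E-box CACGTG. Prg4 held TATAAA on the opposite strand, starting 25 bases before the start site, and CCAAT on the opposite strand at 230 bases. Rab3b held TGACG at 226 bases and, on the opposite strand, at 202 bases. Gstt3 held CCAAT at 48 bases and, on the opposite strand, at 73 bases. Clic5 held none of the 7 motifs. Of 33469 rat windows of the same length, 12.9% held TATAAA, 34.0% held CCAAT and 18.2% held TGACG, so each match is common and is given as a description only. GC content was 38.8% for Prg4, 58.4% for Clic5, 53.6% for Rab3b and 53.2% for Gstt3.

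The CIA matrix held 8622 barcodes and 105752977 UMIs (median per cell 10541), and the control matrix 5456 barcodes and 76927821 UMIs (median 11873). After removal of cells over 20% mitochondrial UMIs and of doublets called by Scrublet, 8409 and 5349 cells remained. The libraries shared 52 barcodes, and 1 Clic5-positive barcode of each was found in the other library. The Clic5-positive cells held 2470897 UMIs in the CIA library and 1851058 in the control library, at medians of 16210 and 10892.5 UMIs per cell, while Clic5-low cells had medians of 12464 and 13364.

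The lining name was checked against marker lists. Prg4 and the 3 genes of the UMI limit are on the lining list but chose the cells, so only the other 13 lining markers bear on the name. These summed to 11079 CPM in CIA and 11345 CPM in control Clic5-positive cells, and 5438 and 4404 CPM in Clic5-low cells. They summed to 1467 and 1580 CPM in Col2a1-rich cells and 778 and 847 CPM in cells with Cdh5 and Emcn. In cells rich in C1q genes they summed to 328 and 386 CPM. All 17 lining markers had a UMI in the Clic5-positive cells of both libraries, though Tspan15 had 2 and 1 UMIs. The 14 chondrocyte markers summed to 51.0 CPM in the CIA cells (5 of them at 0) and 234 CPM in the control cells (2 at 0), against 18497 and 44876 CPM in Col2a1-rich cells of the same libraries. The 7 endothelial markers summed to 33.2 and 65.4 CPM, none at 0, against 3727 and 3309 CPM in cells with Cdh5 and Emcn. The 12 macrophage markers summed to 1833 and 1205 CPM, none at 0, against 99838 and 82652 CPM in cells rich in C1q genes. Their part in the results was not tested, but an alternative given below left out cells rich in macrophage or neutrophil markers. The chondrocyte list includes Col2a1 and the macrophage list Lyz2, which the definition limits, so these sums were partly fixed by the choice of cells. The Col2a1-rich, C1q-rich and Cdh5 and Emcn cells were likewise chosen by genes on these lists. The 13 sublining fibroblast markers summed to 650 and 883 CPM, against 966 and 1281 CPM in Clic5-low cells, and Cd34 had 2 and 3 UMIs. By the size rule given below, 0 were higher and 3 lower than in Clic5-low cells of the CIA library. In the control library Pi16, Col14a1 and Clec3b were higher and 6 were lower. The 6 neutrophil markers summed to 868 and 172 CPM, and 1 CIA cell alone reached 71270 CPM.

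Clic5-positive cells took 1.70% of kept CIA cells (143 of 8409, exact binomial interval 1.44 to 2.00%) and 2.62% of kept control cells (140 of 5349, 2.21 to 3.08%). Among Prg4-high cells they took 7.06% (143 of 2026, 5.98 to 8.26%) in the CIA library and 15.3% (140 of 913, 13.1 to 17.8%) in the control library. A limit in UMIs admits deeper cells more easily, and the CIA Clic5-positive cells were the deeper ones. With every cell thinned to 4000 UMIs the shares of kept cells were 0.678% (57 cells) in the CIA library and 2.17% (116 cells) in the control library. These shares belong to cells chosen from the same values and are a description of 2 libraries.

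Clic5 carried the definition in most cells. A Clic5 UMI was present in 92.3% of the CIA cells and 93.6% of the control cells, and 11 CIA and 9 control cells passed on Rab3b and Gstt3 without it. Rab3b had a UMI in 4.20% of the CIA cells and 46.4% of the control cells, and Gstt3 in 20.3% and 57.9%. All 3 genes were present together in 2 CIA and 37 control cells. In macrophage-type cells rich in C1q genes, which should lack these genes, Clic5 had a UMI in 2.66% of CIA and 4.82% of control cells, Rab3b in 0.102% and 0.723%, and Gstt3 in 0.205% and 0.482%, at median depths of 9502.5 and 13120 UMIs. The Clic5 share in Cdh5 and Emcn cells was 12.9% and 13.1%, so some Clic5 lay in another cell type.

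The amount of these 3 RNAs differed between the libraries. A median CIA cell held 5 UMIs of them (275 CPM) and a median control cell 13.5 UMIs (1155 CPM). At least 12 UMIs were found in 21 CIA cells (14.7%) and 73 control cells (52.1%), and 2 to 4 UMIs in 69 CIA cells (48.3%) and 24 control cells (17.1%). Summed Clic5 was 394 CPM in the CIA cells and 1706 CPM in the control cells, and the highest single cell reached 3879 and 10862 CPM. Prg4 itself had a median of 30940 CPM (range 5296 to 143601) in the CIA cells and 37928 CPM (5397 to 161152) in the control cells, against 14129 and 10839 CPM in Clic5-low cells. The Prg4 ranges of the CIA and control Clic5-positive cells overlapped almost wholly. Clic5-low cells reached 161547 CPM in the CIA library and 88869 CPM in the control library. The 2 kinds of cell therefore differed in median Prg4 as well as in Clic5, Rab3b and Gstt3.

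**Figure D1:**
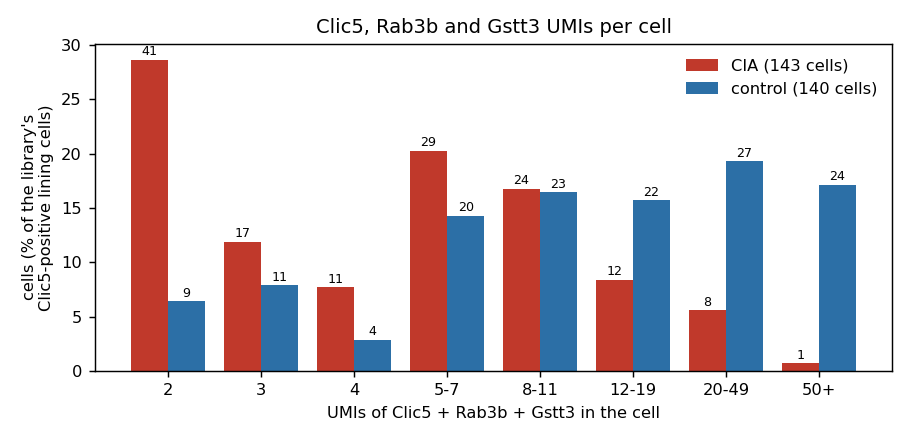
Percent of each library's Clic5-positive lining cells (143 CIA, 140 control) by the UMIs of Clic5, Rab3b and Gstt3 in the cell, with the number of cells above each bar. CIA cells gather at the low end, 41 of them at exactly 2 UMIs, against 9 control cells.

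The lower limit cut through a gradient. The 41 CIA cells with exactly 2 UMIs had 2641 CPM of Htra4, a secreted serine protease, and the 133 CIA cells just outside with 1 UMI had 1337 CPM. In the control library the 9 cells at 2 UMIs had 2082 CPM and the 55 cells at 1 UMI 517 CPM. Few cells lay near the Prg4 limit: 2 CIA and 2 control cells held 5000 to 6000 CPM, and 0 CIA and 2 control cells with 2 or more UMIs held 4000 to 5000 CPM. The other limits set aside 2 CIA and 7 control cells.

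Myoc and Pcsk6, named with the defining genes as markers of these cells, differed in how widely they were found. Myoc, which encodes the secreted protein myocilin, had 2 UMIs in 2 of the CIA cells (0.809 CPM) and 73 UMIs in 14 of the control cells (39.4 CPM), and 27.4% of the control UMIs lay in 1 cell. In control Col2a1-rich cells 25.7% of cells had a Myoc UMI. Pcsk6, a proprotein convertase that activates secreted precursors, was broad: 70.6% of the CIA cells and 92.9% of the control cells had a UMI, against 21.9% and 14.7% of Clic5-low cells. Its level was 154 CPM in the CIA and 556 CPM in the control cells, and 24.1 and 15.6 CPM in Clic5-low cells.

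Beyond the defining genes, Clic5-positive cells of both libraries carried more RNA of F13a1, Fgl2, Sparcl1 and 6 lining markers, among them Htra4 and Cd55, than Clic5-low cells, and less of Postn, Col1a1, Lcn2 and the Wnt antagonists Frzb, Sfrp1, Sfrp2 and Sfrp4. A gene counted as higher or lower when the ratio of CPM of summed UMIs was at least 2-fold, with its exact interval wholly beyond 1.5-fold and at least 100 UMIs over both sums. The 9 genes of the definition were not counted. Of 7306 genes measured in both libraries, 129 were higher in both (1.77%) and 164 lower in both (2.24%), or 4.01% in all. The CIA library alone gave 224 higher genes (2.44%) and 238 lower ones (2.59%) of 9196, or 5.02% in all, and the control library alone 557 higher (7.6%) and 409 lower (5.58%) of 7329, or 13.2% in all. Under TMM factors, 36.6% of the genes called in both libraries were higher, against 44.0% here. Because the cells were chosen by values of the same cells, these counts describe them and test nothing.

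Among the genes higher in both libraries, F13a1, the A chain of coagulation factor XIII, came first by the smaller of its ratios in the 2 libraries. It stood at 187 CPM in CIA Clic5-positive cells against 12.8 CPM in CIA Clic5-low cells (14.5-fold, 12.6 to 16.8), and at 1133 against 18.9 CPM in the control library (59.9-fold, 51.5 to 70.1). In C1q-rich macrophage-type cells F13a1 was at 4.29 and 8.54 CPM. Fgl2, a fibrinogen-like secreted protein, was at 476 against 62.8 CPM (7.58-fold) in the CIA library and 1693 against 31.4 CPM (54.0-fold) in the control library. Sparcl1, a secreted matricellular protein, was at 255 against 38.1 CPM (6.68-fold) in the CIA library and 2714 against 48.2 CPM (56.3-fold) in the control library. Sparcl1 was also abundant in Cdh5 and Emcn cells, at 889 and 562 CPM, while Cdh5 itself had 9 and 21 UMIs in the Clic5-positive cells.

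Known lining markers followed. Of 11 measured lining markers outside the definition, 6 rose in both libraries (Pcsk6, Htra4, Cd55, Hbegf, Has1 and Col22a1) and 0 fell in both. In the control library taken alone, 9 of 12 were higher and Has2 was lower. Cd55, a regulator of complement, was at 590 against 84.6 CPM (6.97-fold) in the CIA library and 964 against 38.4 CPM (25.1-fold) in the control library. Htra4 was at 3412 against 659 CPM (5.18-fold) and at 5162 against 365 CPM (14.1-fold). It was detected in 98.6% of CIA and 99.3% of control Clic5-positive cells. Hbegf, a ligand of the EGF receptor, was at 1440 against 293 CPM (4.91-fold) and at 1630 against 127 CPM (12.8-fold). Has1, a hyaluronan synthase, was at 740 against 183 CPM (4.04-fold) and at 377 against 119 CPM (3.18-fold).

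Others in the upper group were less abundant. Vit (vitrin, a matrix protein), Aldh1a3 (a retinoic acid-forming dehydrogenase), Anxa3, Baalc, Fam129a, Neu2 (a sialidase), Pcbd1 and Slurp1 were 4.26- to 8.31-fold higher in the CIA library and 4.98- to 42.3-fold higher in the control library. The inhibitor Timp3, which binds to matrix and blocks metalloproteases, was at 734 against 170 CPM (4.32-fold) in the CIA library and 214 against 54.7 CPM (3.91-fold) in the control library. Of 17 measured transcription factors of lining and joint cells, Creb5, Foxo1 and Sox5 rose in both libraries and Twist1 fell. Creb5, which in bovine superficial-zone chondrocytes is known to be needed for Prg4 expression, was at 122 against 53.6 CPM (2.27-fold) in the CIA library and 205 against 46.3 CPM (4.42-fold) in the control library. Of 20 measured immediate-early genes, rapidly induced by many stimuli, 6 rose in both libraries (Fos, Egr1, Egr2, Atf3, Klf4 and Zfp36) and 0 fell. Ctgf, a matricellular protein induced by Yap, was at 3069 against 825 CPM in the CIA library and 5950 against 762 CPM in the control library.

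**Figure D2:**
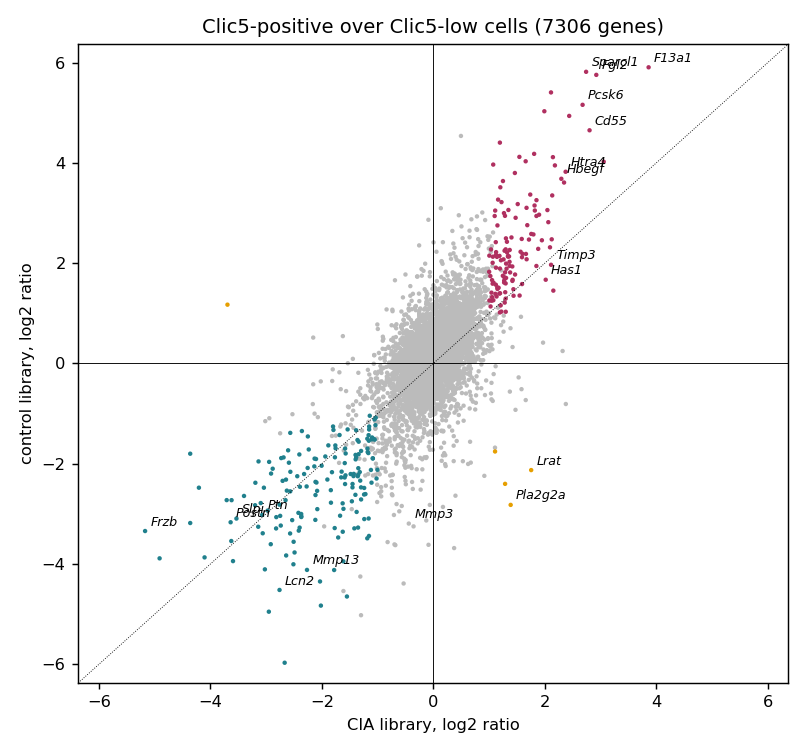
Log2 ratio of summed CPM, Clic5-positive over Clic5-low cells, in the CIA library (x axis) and the control library (y axis) for 7306 genes measured in both; the dotted line marks equal ratios. Red points passed the size rule upward in both libraries, green points downward in both and orange points in opposite directions, and 117 of the 129 red points lie above the dotted line.

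Fgf7, a growth factor for epithelium, was in the lower group. It had 2 and 2 UMIs in the Clic5-positive cells, and was at 0.809 against 13.9 CPM in the CIA library and 1.08 against 15.8 CPM in the control library. Of 6 measured Wnt pathway genes, the secreted antagonists Frzb, Sfrp1, Sfrp2 and Sfrp4 fell in both libraries and 0 rose. Frzb was at 1.21 against 43.8 CPM (36.1-fold lower, 12.3 to 175) in the CIA library and 4.86 against 49.3 CPM (10.1-fold lower, 5.30 to 22.3) in the control library. Postn, periostin, was at 149 against 1860 CPM (12.5-fold lower) and at 259 against 2327 CPM (8.99-fold lower). Slpi, a protease inhibitor, was at 164 against 1903 CPM and at 144 against 1232 CPM, although 73.8% of the control UMIs lay in 1 cell. In C1q-rich cells Postn was at 132 and 125 CPM, close to its level in the Clic5-positive cells of the CIA library.

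Of 14 measured cytokines and chemokines, 5 fell in both libraries (Cxcl6, Cxcl12, Ccl2, Ccl7 and Ccl20) and 0 rose. Of 14 measured genes of fibrillar collagens and their processing, Col1a1, Col12a1 and Lox fell and 0 rose. Col1a1 was at 8336 against 20499 CPM (2.46-fold lower) in the CIA library and 4524 against 25113 CPM (5.55-fold lower) in the control library. Of 12 measured metalloproteases, Mmp13 (collagenase 3) and Adam12 fell in both libraries. Mmp13 was at 569 against 2739 CPM in the CIA library and 162 against 2816 CPM in the control library. Lcn2, an iron-binding protein induced by inflammation, was at 238 against 1613 CPM and at 78.9 against 1808 CPM. Tnfsf8, Mme, Cyp7b1, Ptn, Col11a1, Angpt1, Clec11a, Srpx2, Car4 and Il7 were also lower in both libraries, by 7.06- to 20.6-fold in the CIA library and 6.90- to 15.4-fold in the control library.

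The differences of F13a1, Htra4 and Col1a1 were graded by the amount of Clic5, Rab3b and Gstt3. From Clic5-low cells through cells with 2 to 4, 5 to 11 and at least 12 UMIs, F13a1 was at 12.8, 118, 144 and 528 CPM in the CIA library and 18.9, 296, 803 and 1533 CPM in the control library. Htra4 followed the same order, with 659, 2834, 3072 and 6248 CPM in the CIA library and 365, 2141, 3691 and 6739 CPM in the control library. Col1a1 ran the other way, with 20499, 10114, 7452 and 5316 CPM in the CIA library and 25113, 11919, 4796 and 2247 CPM in the control library. Not every gene ran in such an order: control Timp3 was at 263 CPM with 2 to 4 UMIs and 234 CPM with at least 12. Since the classes are cut from the defining genes, these values are a description.

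**Figure D3:**
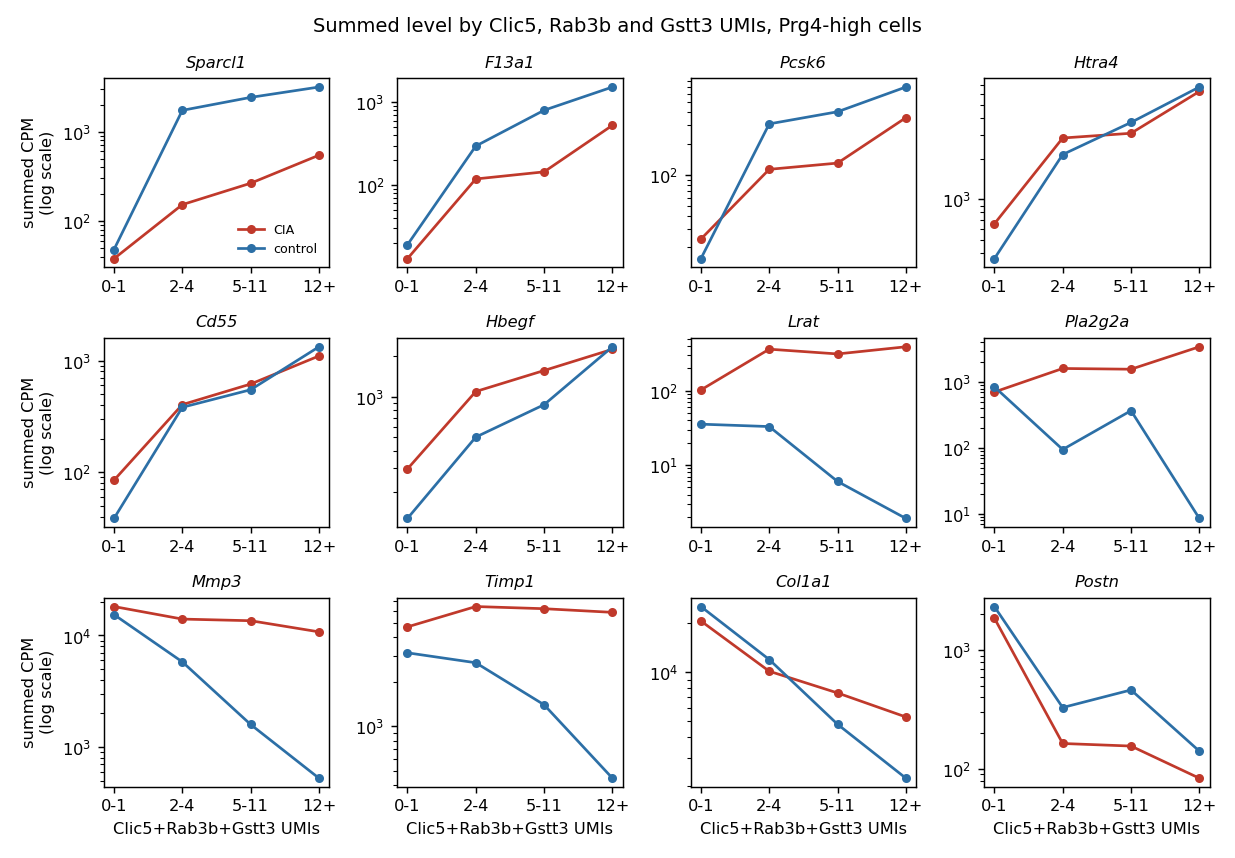
Summed CPM (log scale) of 12 genes in Prg4-high cells by their UMIs of Clic5, Rab3b and Gstt3, in the CIA library (red) and the control library (blue); 0-1 are the Clic5-low cells. Htra4, Cd55 and Hbegf meet at 12 or more UMIs, whereas Lrat, Pla2g2a, Mmp3 and Timp1 are higher in the CIA cells from 2 UMIs up and furthest apart at 12 or more, with Mmp3 at 10776 CPM in the CIA and 526 CPM in the control cells.

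Between the libraries, the CIA Clic5-positive cells held more RNA of Lrat, Pla2g2a, Mmp3, Timp1 and Inhba, and less of Sparcl1, Gsn, F13a1, Fgl2, Pcsk6 and 12 of 18 immediate-early genes than the control Clic5-positive cells. Of 4703 genes measured, 147 were higher (3.13%) and 196 lower (4.17%), or 7.29% in all. In Clic5-low cells, with far more UMIs, 85 of 9690 genes were higher (0.877%) and 95 lower (0.98%), or 1.86% in all; the difference between the kinds of cell was not tested. Among the called genes of Clic5-positive cells 42.9% were higher, and 59.6% under TMM factors, which moved the median log2 ratio of all genes to 0.06, against -0.09 here. The median without the 50 most abundant genes was 0.00, with 51.3% higher. The mix of cells also differed, as more CIA cells lay just above the lower limit. Ratios within classes of UMIs of the defining genes are therefore given for some of the genes described. For genes without them, no difference within a class is claimed. Of the 343 called genes, 110 of the 165 that could be measured with at least 12 UMIs passed there in the same direction, and 65 of the 154 that could be measured with 2 to 4 UMIs.

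Lrat, the enzyme that stores retinol as esters, was the named gene with the largest ratio among those seen in at least 10% of the CIA cells. It had 852 UMIs in the CIA cells and 15 in the control cells, or 345 and 8.10 CPM (42.6-fold, 25.7 to 76.4), and was present in 46.2% and 4.29% of cells. With at least 12 UMIs of the defining genes it was at 389 and 1.91 CPM, and with 2 to 4 UMIs at 361 and 32.9 CPM. Lrat was 39.8-fold higher without the CIA cell richest in it and 90.3-fold higher without the control cell richest in it. Lrat was also found in Cdh5 and Emcn cells, at 146 and 142 CPM. In Clic5-low cells it was 2.89-fold higher in the CIA library, at 102 and 35.4 CPM.

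Pla2g2a, a secreted phospholipase of inflamed joints, was at 1854 CPM in the CIA cells and 120 CPM in the control cells (15.4-fold, 13.5 to 17.7). It was found in 67.8% and 17.9% of cells, and at 12 or more UMIs of the defining genes it was at 3444 and 8.59 CPM. With 2 to 4 UMIs it was 16.9-fold higher. Over all the cells it was 13.9-fold higher without the CIA cell richest in it and 24.4-fold higher without the control cell richest in it. In Clic5-low cells it did not pass the size rule, at 709 and 852 CPM. Gap43, a growth-associated membrane protein, was at 147 and 9.18 CPM (16.0-fold, 9.82 to 27.7), and in Clic5-low cells at 52.8 and 17.4 CPM (3.02-fold). It was 14.8-fold higher without the CIA cell richest in it and 24.6-fold higher without the control cell richest in it. With 2 to 4 UMIs of the defining genes it was 8.58-fold higher (2.85 to 42.4), but its 93 CIA and 3 control UMIs were too few for the size rule. Scara5, Rgs4, Ptprn, Ch25h, Cyp4b1, Serinc2, Tll1 and Grem1 were 8.51- to 24.5-fold higher in the CIA cells, and 1.27- to 7.06-fold higher with 2 to 4 UMIs.

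Of 10 measured metalloproteases, 5 rose (Mmp3, Mmp13, Mmp23, Mmp19 and Mmp2) and 0 fell, with a median log2 ratio of 1.05 against -0.09 for all genes. Mmp13 was 1.27-fold higher with at least 12 UMIs of the defining genes and 1.41-fold with 2 to 4 UMIs and did not pass in either class. Mmp3, stromelysin 1, was at 13378 CPM in the CIA cells and 1681 CPM in the control cells (7.96-fold, 7.67 to 8.26). A median cell held 11776 CPM in the CIA library and 375 CPM in the control library, and all 143 CIA cells and 131 of the 140 control cells had a UMI. Mmp3 was at 498 and 359 CPM in C1q-rich cells, a low level in cells of another kind. It was 20.5-fold higher in CIA cells with at least 12 UMIs of the defining genes, 2.42-fold higher with 2 to 4 UMIs, and 1.18-fold higher in Clic5-low cells. Timp1, an inhibitor of metalloproteases, was at 6259 and 1071 CPM (5.84-fold, 5.58 to 6.13), and at 4684 and 3132 CPM in Clic5-low cells. Its ratio was 13.1 with at least 12 UMIs of the defining genes and 2.39 with 2 to 4 UMIs.

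Of 14 measured genes of fibrillar collagens and their processing, Col3a1, Loxl2, Plod2 and Pcolce rose and 0 fell (median log2 ratio 0.84). Col3a1 was at 15559 and 5245 CPM (2.97-fold, 2.90 to 3.03), but only 1.28-fold apart in cells with 2 to 4 UMIs of the defining genes, and at 26148 and 26703 CPM in Clic5-low cells. Of 14 measured genes of basement membrane and lining matrix, Tnc, Fbn1, Lamb1 and Col6a2 rose and 0 fell. Of 8 measured lubricant and hyaluronan genes, Tnfaip6 (which binds hyaluronan in inflamed tissue), Has2 and Vcan rose and 0 fell (median 0.94). Tnfaip6 was at 1911 and 426 CPM (4.49-fold, 4.16 to 4.85). It was 14.9-fold higher with at least 12 UMIs of the defining genes, but 1.44-fold with 2 to 4 UMIs, where it did not pass, and neither did Vcan (1.69-fold). Has1 was at 740 and 377 CPM, a ratio of 1.96 that did not pass. Prg4, which is part of the definition, was at 36847 and 49277 CPM as summed.

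Of 12 measured cytokines and chemokines, 6 rose and 4 fell (median 0.92). Those that rose were Cxcl3, Cxcl6, Ccl20, Cxcl13, Ccl5 and the decoy receptor Tnfrsf11b, and those that fell were Ccl2, Il1b, Ccl7 and Csf1. Cxcl3, a neutrophil-attracting chemokine, was at 386 and 18.9 CPM (20.4-fold), and Cxcl6, another, at 278 and 18.4 CPM (15.1-fold). Cxcl3 was 14.5-fold higher without the CIA cell richest in it and 41.4-fold higher without the control cell richest in it. With 2 to 4 UMIs of the defining genes it was at 201 and 78.9 CPM (2.55-fold). Cxcl6 was 11.1-fold higher with 2 to 4 UMIs and 7.44-fold (3.80 to 15.4) with at least 12. In the latter class its 32 CIA and 13 control UMIs were too few for the size rule. Single cells carried much of several of these: 1 CIA cell held 64.8% of the Ccl20 UMIs, and Ccl5 was seen in 1 CIA and 1 control cell. Without that cell Ccl20 was 3.17-fold higher in the CIA cells. Cxcl13 was 3.93-fold higher without the CIA cell richest in it and 54.5-fold without the control cell richest in it, and with 2 to 4 UMIs it was 1.16-fold higher and did not pass. Il1b was 1.93-fold lower without the control cell richest in it and no longer passed. Tnfrsf11b was 4.78-fold higher with at least 12 UMIs of the defining genes but 1.12-fold with 2 to 4 UMIs, where it did not pass. Csf1 was 1.65-fold lower with at least 12 UMIs and did not pass there. Ccl5 had 0 CIA and 3 control UMIs once cells rich in macrophage or neutrophil markers were left out. The neutrophil genes Camp, S100a8 and S100a9 were also higher, with 60.9%, 57.3% and 44.3% of their CIA UMIs in 1 cell each. Without the 17 CIA and 11 control cells rich in macrophage or neutrophil markers, the log2 ratio of Camp was -0.46 and that of S100a9 -0.00268. Inhba, a subunit of activins, was at 1213 and 161 CPM (7.54-fold, 6.69 to 8.52), 11.2-fold higher with at least 12 UMIs of the defining genes and 4.81-fold higher with 2 to 4. Of 11 measured TGF-beta and BMP genes, Grem1, Inhba, Tgfbi and Ltbp1 rose and Id1, Bmp2, Tgfb3 and Id3 fell.

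**Figure D4:**
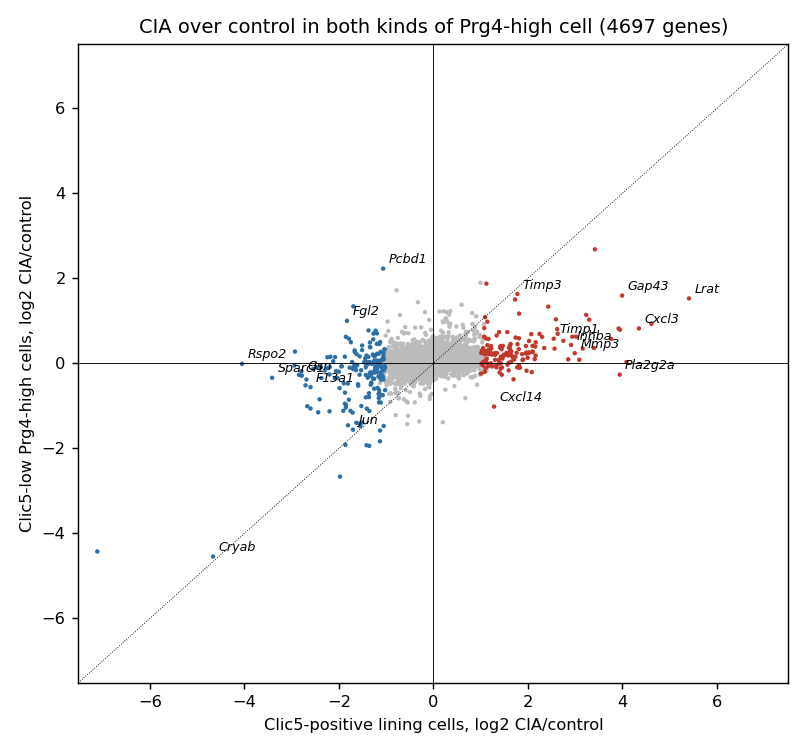
Log2 ratio of CIA over control summed CPM in Clic5-positive lining cells (x axis) and in Clic5-low Prg4-high cells (y axis) for 4697 genes measured in both; the dotted line marks equal ratios. Red points passed the size rule upward and blue points downward in Clic5-positive cells; Mmp3 is 7.96-fold higher in Clic5-positive and 1.18-fold higher in Clic5-low cells.

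On the lower side, Cryab, a small heat shock protein, was at 3.24 CPM in the CIA cells and 82.1 CPM in the control cells (25.4-fold lower, 12.5 to 59.8), and was 23.4-fold lower in CIA than control Clic5-low cells. It was 37.7-fold lower with at least 12 UMIs of the defining genes. With 2 to 4 UMIs it had only 3 CIA and 1 control UMIs, at 2.73 and 3.29 CPM, and did not pass. Sparcl1 was at 255 and 2714 CPM (10.7-fold lower, 9.81 to 11.6), with a UMI in 61.5% and 95.7% of cells and medians of 56.3 and 3141 CPM per cell. It was 5.77-fold lower with at least 12 UMIs of the defining genes, 11.3-fold lower with 2 to 4 UMIs and 1.26-fold lower in Clic5-low cells. Gsn, gelsolin, which severs actin filaments, was at 223 and 1539 CPM (6.90-fold lower), and 5.71-fold lower with at least 12 UMIs and 3.27-fold lower with 2 to 4. Rspo2, a secreted enhancer of Wnt signalling, had 14 UMIs in the CIA cells and 174 in the control cells (16.6-fold lower, 9.63 to 31.0). It was 3.61-fold lower with at least 12 UMIs of the defining genes. After thinning to 4000 UMIs it was 4.62-fold lower (1.85 to 14.9), but its 5 CIA and 47 control UMIs were too few for the size rule.

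Several genes that marked Clic5-positive cells were among those lower in the CIA library. F13a1 was at 187 and 1133 CPM (6.07-fold lower, 5.49 to 6.73), Fgl2 3.56-fold lower and Pcsk6 3.61-fold lower. Htra4 (1.51-fold lower), Cd55 (1.63-fold lower) and Hbegf (1.13-fold lower) did not pass, and at 12 or more UMIs of the defining genes they were 1.08-, 1.21- and 1.04-fold lower. Pcsk6 was 1.97-fold lower at 12 or more UMIs and Fgl2 1.84-fold lower at 2 to 4 UMIs, and neither passed there. Of 11 measured lining markers Has2, Pdpn and Col22a1 rose and Rspo2, Pcsk6 and Itgb8 fell, with a median log2 ratio of -0.18. Pdpn (1.53-fold higher) did not pass with 2 to 4 UMIs, nor Col22a1 (1.69-fold higher) with at least 12. Itgb8, at 13 CIA and 58 control UMIs, was 1.48-fold lower with at least 12 UMIs and did not pass there. Mlana, Fam124a, Cacng1, Enpp5, Zfp385b, Tmem196, Limch1, Nov, Il17d, Entpd2 and Serpine2 were 6.37- to 23.1-fold lower in the CIA cells, and 2.61- to 17.4-fold lower with at least 12 UMIs.

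Of 18 measured immediate-early genes, 0 rose and 12 fell in the CIA cells (median log2 ratio -1.13), and in Clic5-low cells 8 of 21 fell and 0 rose (median -0.82). Jun was at 400 and 1303 CPM in Clic5-positive cells (3.25-fold lower), 256 and 754 CPM in Clic5-low cells (2.95-fold lower) and 898 and 2383 CPM in C1q-rich cells. Fos was 2.84-fold lower over all the cells, but 1.63-fold with at least 12 UMIs and 1.68-fold with 2 to 4 UMIs of the defining genes, where it did not pass. With all cells thinned to 4000 UMIs, the definition was applied anew and left 57 CIA and 116 control cells. In those cells Fos was at 1368 and 1366 CPM, while Jun was 1.58-fold lower and did not pass. Of 7 measured sublining fibroblast markers Mfap5, Thy1 and Cxcl14 rose and Clec3b and Pi16 fell, and of 5 measured Yap targets Amotl2 and Nt5e rose and Cyr61 fell. Of 5 measured glutathione S-transferases Mgst3 and Gstm1 fell and 0 rose, and of 5 measured small proteoglycans Lum and Dcn rose and 0 fell. Of 12 measured glycolysis and hypoxia genes Ldha and Pgk1 rose and 0 fell. These 2 were 1.55- and 1.23-fold higher with at least 12 UMIs of the defining genes and did not pass there. Without the CIA cell richest in each they were 1.999- and 1.988-fold higher and did not pass. Of 10 measured transcription factors Pitx1 and Barx1 fell and 0 rose, and of 5 measured MHC class II genes 0 rose and 0 fell. Over all 4703 measured genes 7.29% passed, so 0 of 5 is near that share, and counts in such short lists are a description.

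**Figure D5:**
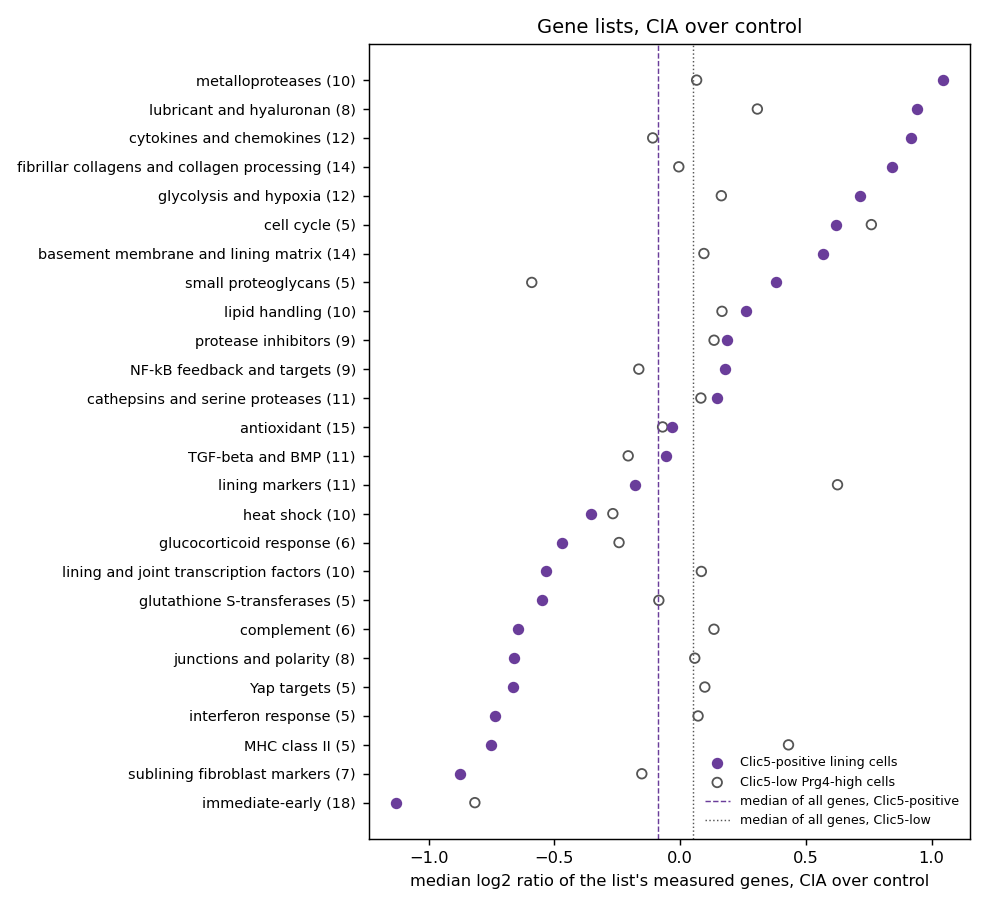
Median log2 ratio of CIA over control for gene lists with at least 5 genes measured in Clic5-positive lining cells (filled) beside the same list in Clic5-low Prg4-high cells (open), with the number of genes in brackets and vertical lines at the medians of all genes (-0.09 and 0.05). Metalloproteases lie furthest right at 1.05 and immediate-early genes furthest left at -1.13 in Clic5-positive cells.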

How the data were processed

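Single-cell RNA was measured in 1 CIA and 1 control library of rat cartilage, made with the Chromium 3' kit, version 2, per the labels' protocols. The authors deposited raw UMI counts per gene and cell. Genome build mRatBN7.2 comes from the submitters' processing notes. How reads were aligned and cells called is not given in the sources used here. No cell held fewer than 4365 UMIs (CIA) or 5095 UMIs (control).

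Cells under 200 genes or over 20% mitochondrial UMIs were dropped (47 CIA and 45 control cells), as were Scrublet doublets (166 and 62). Comparison cells had the same Col2a1, Lyz2 and Aqp3 group limits as the Clic5-positive cells; without these limits they number 1881 and 766. UMIs of the 18147 genes listed for both libraries were summed over cells and scaled to CPM, and ratios carry exact conditional 95% intervals. A sum of 0 has a floor of 3 counts. PCR duplicates are removed by UMIs, and intervals and floors cover counting error only. C1q-rich cells had at least 5 UMIs of C1q genes, and endothelial-type cells at least 3 of Cdh5 and Emcn.

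Genes were named if part of the definition or a described list, or among the 15 largest folds in each direction in at least 10% of cells; others were chosen after their values were seen. Contig symbols were counted but not named. Of 563 entries in 41 gene lists, 536 were listed for both libraries. The cells and lists were chosen with earlier results of these data known. The size rule was tested on simulated sums that varied by counting error alone. That test cannot show how the rule fares with variation between cells or libraries. Tools were Python 3.11.15, scanpy 1.11.5, numpy 2.4.6, scipy 1.17.1, pandas 2.3.3, matplotlib 3.10.9 and, for TMM factors, edgeR 4.0.16 in R 4.3.3. Alternatives changed the limits, depth, scaling and filters.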

Additional observations from a re-analysis of the deposited data

Results flagged for a closer look

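Some genes passed the size rule in opposite directions in the 2 libraries when Clic5-positive cells were set against Clic5-low cells. The ratio of Pla2g2a was 2.61 in the CIA library and 0.141 in the control library. That of Lrat was 3.37 in the CIA library and 0.229 in the control library. Scara5 had 2.44 in the CIA library and 0.189 in the control library, and Fam46b, of which the control cells held 7 UMIs, had 2.15 and 0.296. Pvalb, a calcium-binding protein, had 0.0772 in the CIA library and 2.25 in the control library, and 45.2% of its UMIs in the control Clic5-positive cells lay in 1 cell.

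Other genes passed in opposite directions between CIA and control. Fgl2 had a CIA over control ratio of 0.281 in Clic5-positive cells and 2.00 in Clic5-low cells. Pcbd1 had 0.478 in Clic5-positive and 4.69 in Clic5-low cells, and Aard 0.309 and 2.54. Cxcl14, a chemokine, had 2.44 in Clic5-positive cells and 0.494 in Clic5-low cells. None of these differences was tested.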

How the results depend on the processing

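With 1 library per group no replicate could be left out. No paired analysis was possible because each group has 1 library. Shares of kept cells were 0.678% (CIA) and 2.17% (control) after thinning to 4000 UMIs, and 3.28% and 3.65% with a limit of 1 UMI; the CIA share was 1.21% with 3 UMIs and 1.20% with 200 CPM, a limit added after seeing the data. Genes higher in Clic5-positive than Clic5-low cells in both libraries numbered 81 with 1 UMI and 209 with no minimum of UMIs; those lower numbered 107 with a Prg4 limit of 10000 CPM, 99 after thinning and 68 with 1 UMI. In CIA over control, genes higher numbered 49 after thinning, 67 in cells with at least 12 UMIs, 49 in cells with 2 to 4 UMIs and 232 with no minimum; genes lower numbered 28, 88, 37 and 450 under the same settings. Of the 343 genes called in CIA over control, 286 remained under TMM factors, 205 with 1 UMI, 110 of 165 that could be measured with at least 12 UMIs, 65 of 154 with 2 to 4 UMIs and 60 of 90 after thinning. Without cells rich in macrophage or neutrophil markers, 309 of the 328 that could be measured remained. Of the called genes that could be measured, 3 changed sign with 1 UMI, 5 after thinning, 4 with 2 to 4 UMIs, 1 with at least 12 UMIs and 1 without marker-rich cells; of the 293 called over Clic5-low cells, 6 did with 1 UMI. Among called genes followed by name, log2 ratios changed sign for Ccl20 (-0.44 with 1 UMI), Fos (0.00214 after thinning), Itgb8 (0.054 in cells with 2 to 4 UMIs), Ccl5 (0 CIA and 3 control UMIs), Camp (-0.46) and S100a9 (-0.00268; these 3 without cells rich in macrophage or neutrophil markers); the cause was not tested. Thinning chose the cells anew, so it changed the set of cells as well as their depth. The UMI classes and the removal of marker-rich cells were chosen after seeing the data. The other 41 alternative counts and shares stayed within 1.5 times the count or within the interval of the share.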
